A study of Sus scrofa with 4 samples.

Results

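The translation initiation and elongation factors were followed in pig (Sus scrofa) blastocysts as every EMPV1 probe whose platform gene symbol begins with EIF or EEF, leaving out EIF1AY and the EIF2AK kinases. The rule took 69 probes of 39 genes from 43794 EMPV1 probes, a porcine oligonucleotide design on which 13146 probes carry 1 gene symbol and 10024 genes are named. The rule reads symbols and no measured value. EEF1A1, EEF2, EIF4G1, EIF6 and EIF4EBP1 are not among the symbols of the platform table used, so nothing is said of them. EIF2C1, EIF2C2 and EIF2C4 are older symbols of the Argonaute genes AGO1, AGO2 and AGO4, which bind small RNAs and are not initiation factors. They came in by the spelling of their symbols, and they are given apart.

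There were 4 two-colour arrays, which the labels call biological replicates. Each array compared 2 pools of 10 blastocysts, collected on days 7 and 8. One pool came from oocytes that had met high non-esterified fatty acids (high NEFA), and the other came from control oocytes. The series title names a coculture with a monolayer of "GCs", which the labels do not spell out, and it is not stated whether the control oocytes had it too. Cy3 marked the high NEFA pool on replicates 1 and 2, and Cy5 marked it on replicates 3 and 4. The design text speaks of 4 pools without saying whether that is in all or of each kind. The arrays were taken as separate replicates, and if pools were hybridised more than once, errors and p-values over 4 arrays would be too small. Nothing in the labels says that the pools came from separate sows or collections, so a p-value reflects only how these pools vary, which may be technical. The labels do not give the age, breed or NEFA concentration, and they do not say which day each pool was collected on.

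The material on the arrays is described in contradictory ways. The molecule is labelled total RNA and the type of study expression profiling, but the written protocols describe genomic DNA cut by the methylation-sensitive enzymes HpaII, HinP1I and AciI and then labelled. The values below are therefore called intensities and ratios of probes, not transcript levels. Had digested DNA been hybridised, a ratio would be of surviving DNA fragments, and the many processed copies that translation factor genes have in mammalian genomes could bind the same probes.

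Initiation factors bring the initiator tRNA, the small ribosomal subunit and the capped end of an mRNA together, and elongation factors then deliver aminoacyl-tRNA and move the ribosome along. The factor eIF2 carries the initiator tRNA, eIF2B recharges it with GTP, eIF3 holds the small subunit to the mRNA, and eIF4E, eIF4G and eIF4A bind the cap and open the leader. In the early embryo, proteins are first made from mRNA stored by the oocyte, and control of cap binding and of eIF2 is a known means of regulating that store. Fatty acid load is known to activate, in other cells, the kinases that phosphorylate eIF2. Such control acts through phosphorylation, which these arrays do not measure.

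Of the 69 probes, 62 probes of 36 genes exceeded the negative control spots (mean plus 2 SD of that array and channel) in at least 4 of the 8 channel measurements and were tested, 52 of them in all 8. No spot of these genes was marked as bad or saturated. Across all probes, 57.1% to 60.3% exceeded the negative controls in Cy3 and 49% to 51.2% in Cy5. Precision is limited by there being 4 arrays. The dim probes were those of EIF2B5, above background in 3 channels, of EIF4E1B, above it in 1, and of EIF2C4, above it in 0. EIF2B5 is the catalytic subunit of eIF2B, and EIF4E1B is a form of the cap-binding protein known from oocytes. One probe each of EIF2B2, EIF3A, EIF4A2 and EIF4G3 was above background in 0 channels, while their other probes were tested. No ratio is given for dim probes. Trophectoderm markers were seen on the array, with 6 of the 7 genes present above background in all 8 channels (among them GATA3, ELF5 and TFAP2C). Of the 4 inner cell mass markers present, LIN28A and UTF1 reached all 8 channels, as did AMH of the 2 granulosa cell markers present. GDF9, MOS and ZP2, 3 of 6 oocyte markers present, also did. Of the 20 tested marker probes, 0 passed the adjusted threshold in limma's fit. At an unadjusted p below 0.05 there were 7 of the 20, beside 6.41% of all tested probes. Among these 7, higher in high NEFA pools were 4 of 10 trophectoderm probes, with fitted log2 ratios of 0.57 for DLX3, 0.37 for TFAP2C, 0.31 for GATA3 and 0.28 for DAB2. So were 2 of 4 inner cell mass probes, at 0.40 for LIN28A and 0.36 for UTF1. The other trophectoderm probes were at −0.12 for DAB2, −0.08 for ELF5, 0.04 for GATA2, −0.14 and 0.12 for TEAD4, and 0.17 for TFAP2C. The other inner cell mass probes were at −0.01 for KLF4 and 0.15 for SOX2. GDF9, an oocyte marker, was lower at −0.33, and the other oocyte probes ran from −0.20 to 0.09. The DLX3 probe was above background in 4 of 8 channels. Its ratios were 1.31, 0.98, −0.10 and 0.07 on replicates 1 to 4, and its dye term was −0.58 (adjusted p = 0.0125 by limma). The part of cell makeup in the ratios below was not tested.

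High NEFA and control pools were not told apart by any translation factor probe at an adjusted p below 0.05. In limma's fit 0 of 62 probes passed, against 0 of the 24524 probes tested in all (0%). At an unadjusted p below 0.05 there were 2 of the 62 (3.23%), one probe of EIF3L and one of EEF1D, both lower in high NEFA pools. The share over all tested probes was 6.41%, so the share among translation factors was not above the background. The smallest adjusted p was 0.764. Fitted ratios of high NEFA over control were above 0 for 36 probes and below 0 for 26, with a median of 0.02 on the log2 scale, beside −0.01 over all tested probes. They ran from −0.36 to 0.30.

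The median standard error was 0.13 on the log2 scale. The 95% interval of the ratio lay within 1.5-fold in either direction for 58 of the 62 probes (93.5%, beside 87.9% of all tested probes) and within 2-fold for 62 of 62 (beside 99.5%). The 4 probes whose interval reached past 1.5-fold were EIF3L EMPV1_34507, EEF1D EMPV1_40628, EIF2C1 EMPV1_38054 and EIF1AD EMPV1_06509. These intervals are not adjusted for the number of probes, and the adjusted threshold asks for larger differences: the smallest p of any probe on the array, 5.31e-06, gave an adjusted p of 0.0934 in limma's fit. The SD of the fitted ratios among the translation factor probes was 0.13, beside 0.17 over all tested probes.

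**Figure D1:**
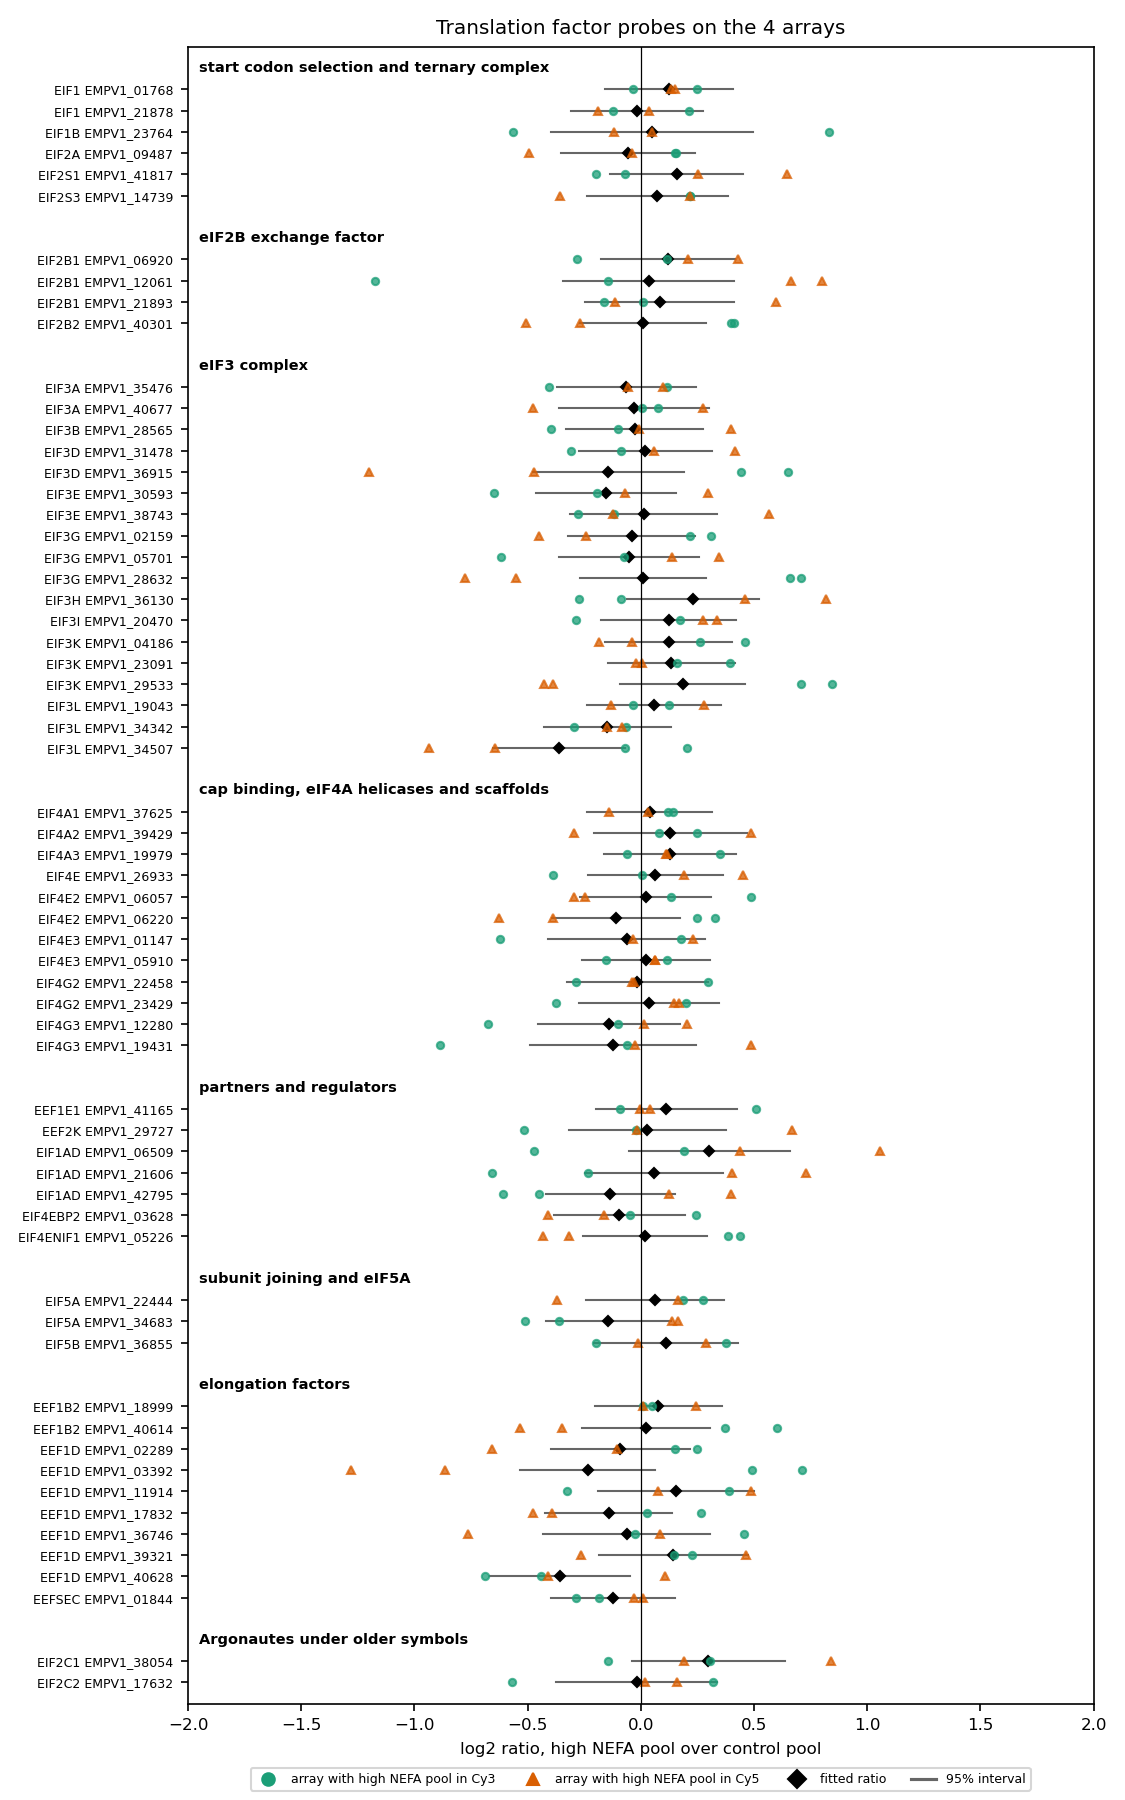
The plot shows, for each of the 62 tested probes in rows grouped by role, the log2 ratio of the high NEFA pool over the control pool on each array (circles, high NEFA in Cy3; triangles, high NEFA in Cy5), the fitted ratio (diamond) and its 95% interval (line). The intervals of EIF3L EMPV1_34507 and EEF1D EMPV1_40628 alone leave out 0, both on the lower side, and in many rows circles and triangles fall on opposite sides of 0.

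Start codon selection and the ternary complex were represented by 6 tested probes of 5 genes, 4 higher and 2 lower, with a median log2 ratio of 0.06. EIF2S1, the alpha subunit of eIF2 that stress kinases phosphorylate, had log2 ratios of −0.20, −0.07, 0.25 and 0.65 on replicates 1 to 4. It was lower on both arrays with high NEFA in Cy3 and higher on both with high NEFA in Cy5. The fitted ratio was 0.16 ± 0.13 (SE, n = 4 arrays), with a 95% interval from −0.13 to 0.45. EIF2S3, the gamma subunit that binds GTP and the initiator tRNA, was at 0.22 on each of replicates 1, 2 and 3 and at −0.36 on replicate 4, and its fitted ratio was 0.07 ± 0.14. One array thus went against the other three. EIF1, which keeps the ribosome from starting at a wrong codon, had 2 probes at 0.12 ± 0.13 and −0.02 ± 0.13. EIF1B, its close relative, was at 0.05 ± 0.20, with −0.56 on replicate 1 and 0.83 on replicate 2. These 2 arrays have the same dye orientation, and they were the extremes for that probe. EIF2A, a factor separate from eIF2 that can also bind the initiator tRNA, was at −0.06 ± 0.13.

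The exchange factor eIF2B had 4 tested probes of 2 genes, all with ratios above 0 but none past 0.12 in the reported fit. The 3 probes of EIF2B1, the alpha subunit through which phosphorylated eIF2 is sensed, were at 0.12 ± 0.13, 0.04 ± 0.17 and 0.08 ± 0.15. The first, EMPV1_06920, was above background in 4 of 8 channels, 1 of them with a control pool. The second, EMPV1_12061, had −0.14, −1.17, 0.66 and 0.80 on replicates 1 to 4. Its arrays of one dye orientation lay apart from those of the other, and its Cy5 over Cy3 term was 0.69 (adjusted p = 0.0175). EIF2B2, the beta subunit, had 0.40, 0.41, −0.51 and −0.27 and a fitted ratio of 0.01 ± 0.13. Its 4 arrays were again divided by dye orientation. With mean pixels the 3 EIF2B1 probes were, in the same order, at 0.00 ± 0.03, 0.27 ± 0.19 and 0.06 ± 0.08. EIF2B2 was then at −0.03 ± 0.05.

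The eIF3 complex was the best covered, with 18 tested probes of 9 genes, 9 higher and 9 lower. Their median was −0.01. EIF3L, a subunit that with EIF3K forms a peripheral module, held the lowest ratio and the smallest p of the whole set. For its probe EMPV1_34507 the normalized log2 intensity in high NEFA pools was 11.18, 11.70, 11.27 and 11.27 on replicates 1 to 4, and in control pools it was 11.25, 11.50, 12.20 and 11.92. The high NEFA pools lay well below the controls on replicates 3 and 4, slightly below on replicate 1 and above on replicate 2. Taken across arrays, which were not scaled to each other, the groups overlapped. The ratios were −0.07, 0.20, −0.93 and −0.65, and the fitted ratio was −0.36 ± 0.13 (1.29-fold lower, 95% interval −0.65 to −0.07, unadjusted p = 0.0198, adjusted p = 0.764 by limma). The dye term of the same probe was −0.43 (adjusted p = 0.0411). With the mean pixel of each spot in place of the median, the fitted ratio was −0.08 ± 0.05. Leaving out 1 array at a time gave −0.43 to −0.29, and the unadjusted p was no longer below 0.05 without replicate 1 or without replicate 3. The other probes of the gene gave −0.15 ± 0.13 (EMPV1_34342, lower on all 4 arrays at −0.29, −0.06, −0.15 and −0.08) and 0.06 ± 0.13 (EMPV1_19043).

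EIF3K, the partner of EIF3L in that module, had 3 probes with fitted ratios of 0.12 ± 0.13, 0.13 ± 0.13 and 0.18 ± 0.12. All 3 were above 0 and 0 of them passed the threshold. The last, EMPV1_29533, had 0.85 and 0.71 on the arrays with high NEFA in Cy3 and −0.43 and −0.39 on those with high NEFA in Cy5. Its 2 orientations did not overlap, and its dye term of −0.59 (adjusted p = 0.00932) was larger than the exposure term. EIF3H, a subunit that shares the MPN fold of proteasome lid proteins, had log2 intensities of 13.39, 13.16, 14.03 and 13.78 in high NEFA pools and 13.47, 13.43, 13.21 and 13.32 in control pools. The high NEFA pools were the brighter on replicates 3 and 4 alone. Its fitted ratio was 0.23 ± 0.13 (adjusted p = 0.770), and it was −0.01 ± 0.04 with mean pixels. Of the core subunits, EIF3A, the scaffold on which the others assemble, was at −0.06 ± 0.14 and −0.03 ± 0.15, EIF3B at −0.03 ± 0.13, and EIF3I at 0.12 ± 0.13. EIF3G had 3 probes between −0.05 and 0.01. EIF3D, a subunit that can itself bind a cap, had 0.02 ± 0.13 and −0.14 ± 0.15, and EIF3E had −0.15 ± 0.14 and 0.01 ± 0.15. The subunits therefore had ratios on both sides of 0, each with an interval that held 0 except that of the one EIF3L probe.

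**Figure D2:**
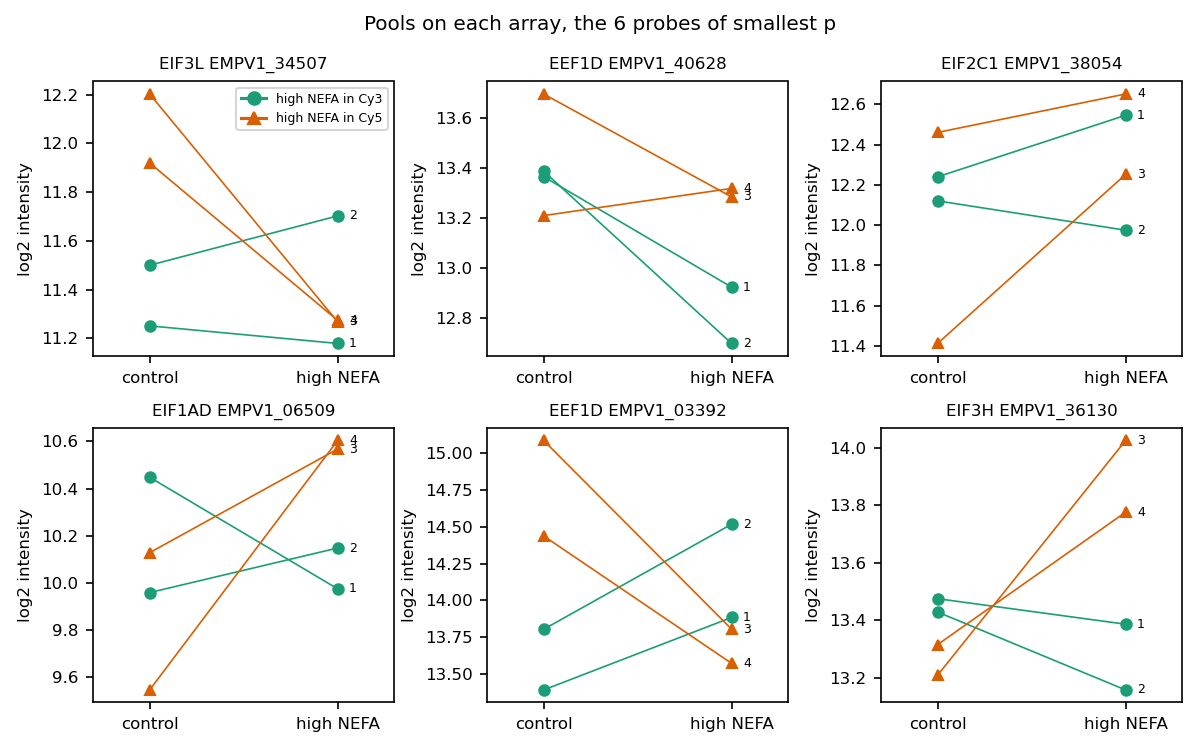
Each panel shows one of the 6 translation factor probes of smallest p, with the normalized log2 intensity of the control pool and the high NEFA pool of each array joined by a line (circles, high NEFA in Cy3; triangles, high NEFA in Cy5; numbers, replicate). Lines run in both directions in every panel. The vertical axes differ between panels and do not start at 0.

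The cap-binding proteins, eIF4A helicases and scaffolds had 12 tested probes of 8 genes, 7 higher and 5 lower. Their median was 0.02, and every fitted ratio lay between −0.14 and 0.13. Of these 12 probes, 7 were above background in all 8 channels, and the others in 4 to 7. EIF4E, which binds the cap, had −0.39, 0.00, 0.19 and 0.45 on replicates 1 to 4. Its fitted ratio was 0.06 ± 0.13 (95% interval −0.23 to 0.36). EIF4A1, the main helicase of the complex, had 0.12, 0.14, 0.03 and −0.14 and a fitted ratio of 0.04 ± 0.12 (−0.24 to 0.32). The arrays were on both sides of 0 for both genes, and a 1.5-fold difference lay outside both intervals. EIF4A2, the second helicase, and EIF4A3, the form found in the exon junction complex, were each at 0.13, with SE of 0.15 and 0.13. EIF4E2, a cap-binding protein that represses translation, had 2 probes at 0.02 ± 0.13 and −0.11 ± 0.13, and those of EIF4E3 were at −0.06 ± 0.15 and 0.02 ± 0.13. The scaffold EIF4G3 had both tested probes below 0, at −0.14 ± 0.14 and −0.12 ± 0.16. The second of these was above background in 4 of 8 channels. EIF4G2, a relative that lacks the eIF4E binding site, was at −0.01 ± 0.14 and 0.04 ± 0.14.

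Partners and regulators of the factors had 7 tested probes of 5 genes, 5 higher and 2 lower, with a median of 0.03. EIF1AD, named for a domain it shares with the factor eIF1A, had the highest ratio of the set in its probe EMPV1_06509. The log2 intensity was 9.98, 10.15, 10.57 and 10.60 in high NEFA pools and 10.45, 9.96, 10.13 and 9.55 in control pools. High NEFA was the higher on 3 of the 4 arrays, with the widest gap on replicate 4. Taken across arrays, which were not scaled to each other, the groups overlapped. The fitted ratio was 0.30 ± 0.16 (1.23-fold higher, 95% interval −0.05 to 0.66, adjusted p = 0.768), and leaving out 1 array at a time moved it between 0.14 (without replicate 2) and 0.47 (without replicate 1). The local background of that spot lay between 186 and 230 in Cy3, whichever pool the dye held, and between 60 and 85 in Cy5. The other EIF1AD probes were at 0.06 ± 0.14 and −0.13 ± 0.13. With mean pixels the first of these, EMPV1_21606, was at 0.23 ± 0.06. It was then the one translation factor probe with an unadjusted p below 0.05 (adjusted p = 0.511 by limma). This probe was above background in 4 of 8 channels. Its ratios from median pixels were −0.23, −0.66, 0.73 and 0.40 on replicates 1 to 4, divided by dye orientation. With a single background per array and channel its fitted ratio was −0.03. EEF2K, the kinase that slows elongation by phosphorylating eEF2, was at 0.03 ± 0.15, with −0.51 on replicate 2 and 0.67 on replicate 3. EIF4EBP2, which holds eIF4E away from eIF4G, was at −0.10 ± 0.13. EIF4ENIF1, which carries eIF4E into the nucleus and is known from stored mRNA in oocytes, was at 0.02 ± 0.12. EEF1E1, a protein of the multi-tRNA synthetase complex, was at 0.11 ± 0.14.

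Late initiation and eIF5A had 3 tested probes, 2 higher and 1 lower. EIF5B, the GTPase that joins the large subunit, was at 0.11 ± 0.14. EIF5A, which helps the ribosome past difficult peptide bonds and carries the modified amino acid hypusine, had one probe with −0.51, −0.36, 0.16 and 0.14 on replicates 1 to 4 (fitted ratio −0.14 ± 0.12). The other had 0.27, 0.19, −0.37 and 0.16 (0.06 ± 0.14). The 2 probes of EIF5A ran in opposite directions on each of replicates 1, 2 and 3.

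The elongation factors had 10 tested probes of 3 genes, 4 higher and 6 lower, with a median of −0.08. Of these, 7 belong to EEF1D, the delta subunit of the exchange factor that recharges eEF1A, so these probes share 1 gene and are not separate evidence. For EEF1D EMPV1_40628 the log2 intensity was 12.92, 12.70, 13.28 and 13.32 in high NEFA pools and 13.36, 13.39, 13.70 and 13.21 in control pools. High NEFA was the lower on replicates 1, 2 and 3 and the higher on replicate 4. Taken across arrays, which were not scaled to each other, the groups overlapped. The ratios were −0.44, −0.69, −0.41 and 0.11, and the fitted ratio was −0.36 ± 0.14 (1.28-fold lower, 95% interval −0.67 to −0.05, unadjusted p = 0.0274, adjusted p = 0.764 by limma). With mean pixels it was −0.06 ± 0.10. It was −0.30 ± 0.17 without replicate 2 and −0.23 ± 0.19 without replicate 3, and in neither case was the unadjusted p below 0.05.

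A second EEF1D probe, EMPV1_03392, was divided by dye orientation. Its ratios were 0.49, 0.71, −1.28 and −0.86, so the high NEFA pool was the higher on both arrays where it was in Cy3 and the lower on both where it was in Cy5. The dye term was −0.84 (adjusted p = 0.0035) and the exposure term −0.23 ± 0.13 (adjusted p = 0.770). The other 5 EEF1D probes were between −0.14 and 0.16. EEF1B2, the beta subunit of the same exchange factor, had one probe slightly higher on all 4 arrays, at 0.05, 0.01, 0.24 and 0.01 (0.08 ± 0.13), and one at 0.02 ± 0.13. EEFSEC, the elongation factor for selenocysteine, was at −0.12 ± 0.12. The Argonautes EIF2C1 and EIF2C2 were at 0.30 ± 0.15 and −0.02 ± 0.16. For EIF2C1 the ratios were 0.31, −0.15, 0.84 and 0.19, and the fitted ratio was 0.09 ± 0.13 with mean pixels, 0.14 ± 0.19 without replicate 3, 0.18 ± 0.17 without replicate 1 and 0.46 ± 0.19 without replicate 4. Without the Argonautes, 60 probes remained, with a median of 0.02 and the same 2 probes at an unadjusted p below 0.05.

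**Figure D3:**
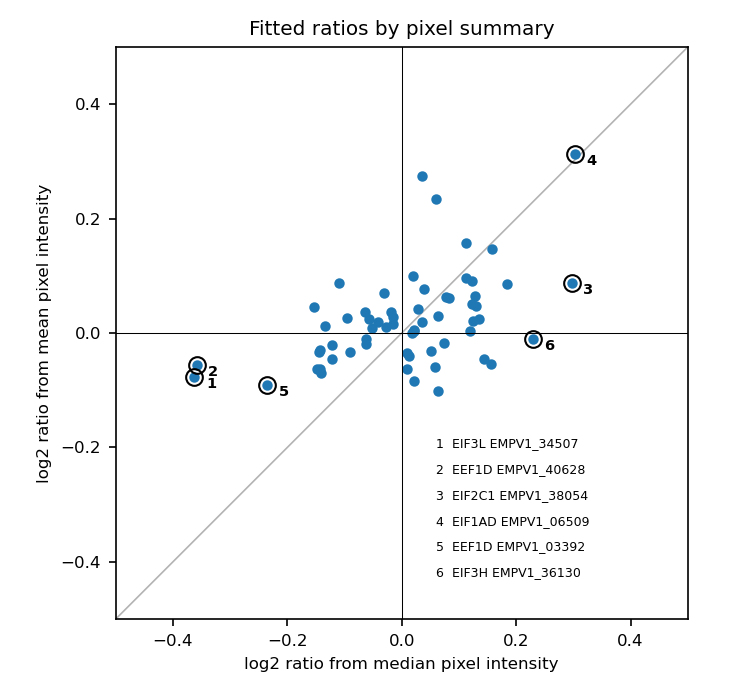
The plot sets the fitted log2 ratio of each of the 62 probes from median pixel intensities (horizontal) against that from mean pixel intensities (vertical), with a line of equality and the 6 probes of smallest p ringed and numbered. EIF3L EMPV1_34507 and EEF1D EMPV1_40628 move from −0.36 to −0.08 and −0.06, while EIF1AD EMPV1_06509 stays near 0.30.

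The choice of pixel summary changed the spread of the whole set. The SD of the 62 fitted ratios was 0.13 with median pixels and 0.08 with mean pixels, 46 probes came closer to 0 and 25 changed sign. Over all 24524 tested probes the SD went from 0.17 to 0.10, 18055 came closer to 0 and 8351 changed sign. The spread thus narrowed over the whole array as well.

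Where a gene had several probes, they gave no common direction in most cases. Of 16 genes with more than 1 tested probe, all probes were above 0 for 3 (EIF3K, EIF2B1 and EEF1B2), all were below 0 for 2 (EIF3A and EIF4G3), and 11 had probes of both signs. The widest spread between the fitted ratios of one gene was 0.51, in EEF1D. For 0 of the 16 genes did 2 probes have 95% intervals that failed to overlap. The matching counts over all genes with several probes are not given here, so these are not read as a trait of translation factors. The probes of a gene may read different transcripts or regions, and where they lie was not used here.

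The dye was the larger term for most translation factors. The Cy5 over Cy3 term had an adjusted p below 0.05 for 12 of the 62 probes (19.4%), beside 22.8% of all tested probes. Its absolute size exceeded that of the exposure term for 49 probes (79%, beside 72.7%), with a median absolute size of 0.21 against 0.09. For 23 probes (37.1%, beside 41.6%) both arrays of one orientation had ratios above 0 and both of the other had ratios below 0. Only EEF1B2 EMPV1_18999 and EIF3L EMPV1_34342 had the same sign on all 4 arrays (3.23%, beside 7.82%). The median of the 62 ratios was 0.02, 0.09, −0.02 and 0.03 on replicates 1 to 4. Over all tested probes it was −0.04, −0.03, 0.04 and 0.04. The set thus lay above the array median on replicates 1 and 2 and below it on replicates 3 and 4.

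**Figure D4:**
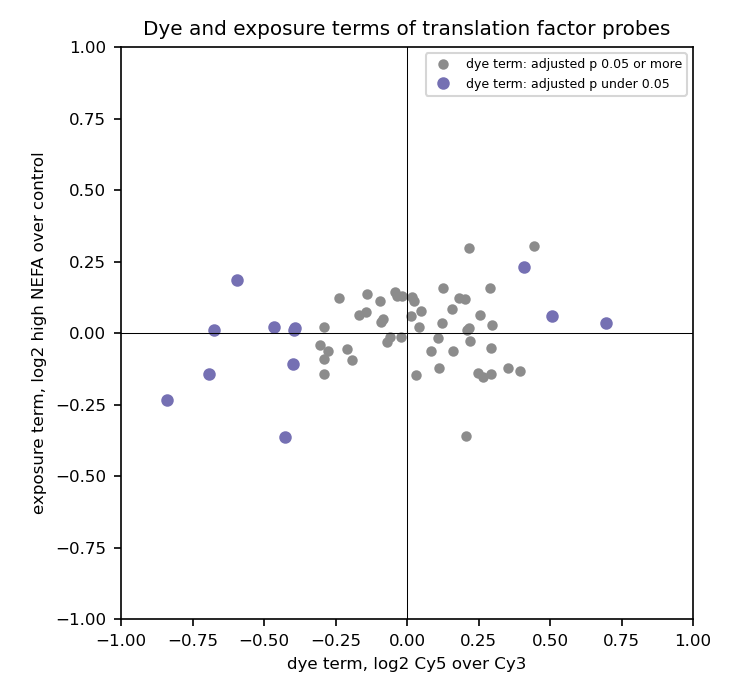
The plot shows the dye term (log2 Cy5 over Cy3, horizontal) and the exposure term (log2 high NEFA over control, vertical) of the 62 translation factor probes on axes of equal length, with the 12 probes whose dye term had an adjusted p below 0.05 in purple. The points spread from −0.84 to 0.69 along the dye axis and from −0.36 to 0.30 along the exposure axis.

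The direction of every ratio rests on the dyes given in the labels. Over the 62 probes, Cy5 over Cy3 ratios of any pair of arrays had a Pearson correlation between 0.34 and 0.57, whether or not the dyes had been exchanged. Turned to high NEFA over control, pairs of opposite orientation had correlations between −0.57 and −0.46. These are across probes, which share the array and the dyes and are not independent replicates.

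For 52 of the 62 probes the fitted ratio was smaller than the SD of the log2 intensity in both groups, and for 10 it was larger than the SD of at least 1 group, EIF3L EMPV1_34507 and EEF1D EMPV1_40628 among them. The SD of a probe over the high NEFA pool of the 4 arrays had a median of 0.28 and ran from 0.04 (EIF4EBP2) to 0.80 (EIF2B1 EMPV1_12061). That EIF4EBP2 probe had a mean log2 intensity of 8.39 in high NEFA pools. The EIF2B1 spot had a local background of 276 beside a raw value of 614 for the high NEFA pool of replicate 2. Over the control pools the SD had a median of 0.25 and ran from 0.03 (EIF3G EMPV1_05701, at a mean log2 intensity of 15.60) to 0.74 (EEF1D EMPV1_03392). The larger SD was in the high NEFA pools for 30 probes and in the control pools for 32. These SDs include the dye, since each group was in both. The arrays were not scaled to each other, so differences in brightness between arrays are also included. Those differences cancel in the ratio within an array, so these SDs are not its error. The count of 52 is not set beside one over all tested probes here.

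Other genes of translation also gave 0 calls at an adjusted p below 0.05. On 6 lists of such genes, 63 probes of 46 genes were tested, 30 higher and 33 lower. Their median was −0.03, and 1 of the 63 probes had an unadjusted p below 0.05, beside 6.41% of all tested probes. That probe belonged to AARS, which charges alanine tRNA. Its ratios were 0.07, 0.07, 0.49 and 0.52, higher on all 4 arrays, and its fitted ratio was 0.29 ± 0.12 (adjusted p = 0.764). A second AARS probe was at 0.10 ± 0.13. The 23 probes of aminoacyl-tRNA synthetases were at a median of −0.06, 9 of them higher and 14 lower.

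The eIF2 kinases and phosphatase subunits, which set the phosphorylation of EIF2S1, had 5 tested probes, 2 higher and 3 lower, with a median of −0.04. EIF2AK4, the kinase that senses uncharged tRNA, was at 0.12 ± 0.15. EIF2AK2, EIF2AK3, PPP1CB and PPP1R15B were too dim to test. Termination and recycling factors had 7 probes with a median of 0.03, and HBS1L, a rescue factor for stalled ribosomes, was at 0.26 ± 0.14 with −0.58, −0.41, 1.26 and 0.76 on replicates 1 to 4. Its sign followed the dye orientation. A second HBS1L probe was at 0.03 ± 0.15, with 0.39, 0.57, −0.81 and −0.01. The 14 probes of poly(A)-binding proteins and cap-dependent control had a median of 0.02. In this list RPS6KB1, the kinase S6K1 downstream of mTOR, was at −0.24 ± 0.13 and lower on all 4 arrays (adjusted p = 0.768 by limma). Its probe was above background in 5 of 8 channels, 2 with high NEFA pools and 3 with control pools.

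Mitochondrial translation factors had 6 tested probes, 1 higher and 5 lower, with a median of −0.17. TUFM, the mitochondrial elongation factor Tu, had −0.32, −0.05, −0.28 and −0.44 in its probe EMPV1_40490, lower on all 4 arrays, and a fitted ratio of −0.27 ± 0.13 (adjusted p = 0.764). Its probe EMPV1_25589 was at −0.30 ± 0.17. The enzymes of hypusine and diphthamide synthesis, which modify eIF5A and eEF2, had 8 probes, 6 higher and 2 lower, with a median of 0.04. DPH1, of diphthamide synthesis, was at −0.26 ± 0.13. The 48 tested probes of cytosolic ribosomal proteins were at a median of −0.02, 23 of them higher and 25 lower. In limma's fit 0 had an adjusted p below 0.05. At an unadjusted p below 0.05 there were 2 of the 48, both lower, beside 6.41% of all tested probes in either direction. The lowest ribosomal ratio was −0.55.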

How the data were processed

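Each deposited scanner file gives the raw intensity of every spot, as a median and a mean over pixels, with that of the surrounding background, at 532 nm for Cy3 and 635 nm for Cy5 (per the file headers). The authors' series matrix holds log2 ratios of Cy5 over Cy3, not turned by dye (scale and direction unstated, column medians 0.00222, 0.00826, 0.00878 and 0.0161, correlation with the scanner files 0.975 to 0.994), and served as an alternative. Of their own tools, only limma is listed in the submitters' processing notes. Genes were named by joining the platform table on spot number.

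Median intensities were corrected with normexp (offset 50) and loess within arrays, control and marked spots at weight 0 (limma 3.58.1, R 4.3.3). For each of the 24524 probes above the negative controls in at least 4 of 8 channels, limma fitted log2 Cy5 over Cy3 with an exposure term signed by dye and a dye intercept, with 2 residual degrees of freedom and 7.87 from the prior. P-values were two-sided with Benjamini-Hochberg adjustment over all 24524. The fit was tested on simulated data with independent errors and planted differences larger than any fitted translation factor ratio. Smaller differences were not simulated.

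The member rule reads symbols only, but it and the lists were chosen with earlier results of these data known. Named were the 6 probes of smallest p, genes with several probes, 10 chosen factors where measured, and the smallest p of each other list. The remaining members were added, with their values already seen, to describe each complex. Probe sequences and positions were not used here. Alternatives covered background, pixel summary, normalization, filter, dye term, prior, the series matrix and each array left out.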

Additional observations from a re-analysis of the deposited data

Results flagged for a closer look

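Among the 62 tested probes and their median, 2 had 1 array far from the other 3 by Dixon's test at the 95% level, which chance gives in about 1 of 20 groups of 4. EIF2S3 EMPV1_14739 was at −0.36 on replicate 4, while the others were at 0.22. EIF4G2 EMPV1_23429 was at −0.37 on replicate 1, while the others lay between 0.15 and 0.20. Neither probe passed the threshold between high NEFA and control in limma's fit (adjusted p = 0.936 for EIF2S3 and 0.970 for EIF4G2), and the cause of the deviating arrays was not tested.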

How the results depend on the processing

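The count of translation factor probes at an adjusted p below 0.05 was 0 under all 12 processing alternatives and with each of the 4 arrays left out. The smallest adjusted p of a translation factor over these settings was 0.345. The count at an unadjusted p below 0.05 was 2 in most settings, 1 with mean pixel intensity, 1 with the authors' series matrix and 0 without a dye term, and 1 to 3 with 1 array left out (1 without replicate 3). The median ratio ran from 0.00 to 0.03. Over all probes the adjusted count, 0 in the reported fit, was 79, 76, 36 and 22 without replicates 1 to 4, 7 with plain subtraction, 5 without a filter, 4 with an offset of 16 and 3 with the series matrix. The fitted ratio kept its sign in every processing alternative for 33 of 62 probes and in every setting, arrays left out included, for 18. Scaling between arrays, both changed filters, no dye term and the changed prior leave a fitted ratio as it was. Signs could therefore change only under the remaining alternatives, and scaling between arrays left the p-values unchanged as well. EIF3L EMPV1_34507 and EEF1D EMPV1_40628 made up the 2 in the other processing alternatives. With arrays left out the probes differed: EIF1AD EMPV1_06509, EEF1D EMPV1_40628 and EIF1B without replicate 1, EIF3L EMPV1_34507 and EIF2C1 without replicate 2, EIF1AD EMPV1_06509 without replicate 3, and EEF1D EMPV1_40628, EIF2C1 and EIF3L EMPV1_34507 without replicate 4. The cause of these changes was not tested. Pools are paired within arrays by the ratio itself, so no further pairing was fitted. Precision is limited by 4 arrays and 2 residual degrees of freedom.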
